A study of Mus musculus with 4 samples.

Results

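Retinoic acid is a small hormone made from vitamin A, and 9 genes that carry, make, bind or clear it are described here in the mouse uterus. They are Rbp4, Stra6, Rdh10, Aldh1a1, Aldh1a2, Aldh1a3, Crabp2, Cyp26a1 and Cyp26b1, chosen by symbol in the authors' deposited TPM table, where all 9 were found among 19991 genes. The RNA was from whole uterus at gestational day 4, when the mouse uterus is becoming ready for the embryo. The 2 control samples were wild type (labelled Control WT). The 2 knockout samples (Pgr gecKO) had the genotype Prss29Cre/Cre;Pgrf/f: Cre recombinase sat at both copies of Prss29, a gene of the uterine glands, and Pgr, the progesterone receptor gene, was floxed on both copies. The comparison asks which uterine RNAs differ when gland cells lack the receptor. The Cre allele is carried by the knockouts alone, so its own effect and that of Pgr loss cannot be told apart. Strain and age are not given in these labels, nor whether each sample is 1 animal, so the spread between samples may be technical in part.

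Retinol travels in blood on the carrier RBP4 and enters cells through the receptor STRA6. RDH10 oxidises it to retinaldehyde, and the ALDH1A enzymes oxidise retinaldehyde to retinoic acid, a step that is not reversed. Inside the cell CRABP2 hands retinoic acid to its nuclear receptors, while the CYP26 enzymes hydroxylate it and so end its action. In the mouse uterus Aldh1a2 is known as the synthesis enzyme of the stroma, and Cyp26a1 as an epithelial gene that is switched on around implantation.

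Total counts ran from 29932153 to 35149834 per library. Levels are given in CPM, counts scaled to a common library size, for 1 gene across libraries, and in TPM, which also divides by gene length, for 1 gene against another. Pgr stood at 140.5 and 138.6 CPM in controls 1 and 2 and at 130.1 and 146.2 CPM in knockouts 1 and 2. Since Pgr is also transcribed outside the glands, whole-tissue RNA does not check its loss there. Prss29 was at 43.9 and 5.41 CPM in the controls and had no count in either knockout, where a count of 0 allows up to 0.0907 and 0.107 CPM. Markers of stroma, smooth muscle and epithelium were present in all 4 libraries, and each of 4 blastocyst markers was at 0.214 CPM or below in each of them.

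None of the 9 genes passed the test of knockout against control (edgeR's quasi-likelihood test, Benjamini-Hochberg over 20950 genes, threshold 0.05), and the adjusted p in edgeR was 0.999976 for each. The background is low, since 0.00477% of all genes tested passed, which is 1 gene. At an unadjusted p under 0.05 there was 1 member, Aldh1a1, against 3.01% of all genes. DESeq2, which called 0.406% of all genes, and limma-voom, which called none of them, also called 0 members. At an unadjusted p under 0.05 they had 2 and 1 members, against 672 and 602 of all 20950 genes. Of the 9, 6 had a log2 fold change above 0 and 3 below, and the median was 0.22 against 0.0063 over all genes tested. In 1 of the 9 the groups did not overlap, against 25.3% of all genes. For several members, libraries of one genotype differed by more than the genotypes did, and Cyp26a1 was the extreme case.

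Cyp26a1 (ENSMUSG00000024987), the main enzyme that clears retinoic acid, was abundant in 1 control and sparse in the other. Its counts were 5570 in control 1, 153 in control 2, 134 in knockout 1 and 975 in knockout 2. Scaled, these were 160.3 and 4.36 CPM in controls 1 and 2 and 4.05 and 34.8 CPM in knockouts 1 and 2. Control 1 was the highest library, knockout 2 came next, and control 2 and knockout 1 were close to each other at the bottom, so the groups overlapped. Control 1 exceeded control 2 by a factor of 36.8, with a 95% counting interval of 31.3 to 43.5 that covers counting error only. Between the knockouts the factor was 8.58, with a counting interval of 7.16 to 10.4. Of all genes tested, 99.97% had a smaller log2 difference between the controls, and 99.3% had a smaller one between the knockouts.

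The fitted log2 fold change of Cyp26a1, knockout over control, was −2.09 (SE 1.47, 95% interval −5.60 to 1.42). This interval holds both a large fall and a rise. Without control 1 the log2 fold change turned to 2.17, and without control 2 it was −3.05, so its sign rested on 1 library.

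The stretch of DNA just before the start of Cyp26a1 is shown because it holds a direct repeat of the type bound by retinoic acid receptors, and that before Rarb, a receptor gene with the same kind of repeat, is shown for comparison. Each is the 250 bases before the start in RefSeq on build GRCm38.p6, read 5′ to 3′ on the gene's strand, with the repeat in capitals. The authors aligned to another build, so these positions are not those of their counts. The Cyp26a1 stretch lies at chr19:37697558-37697807 on the plus strand, with the repeat 32 to 16 bases before the start. The Rarb stretch lies at chr14:16575477-16575726 on the minus strand, with the repeat 53 to 37 bases before the start.
Cyp26a1: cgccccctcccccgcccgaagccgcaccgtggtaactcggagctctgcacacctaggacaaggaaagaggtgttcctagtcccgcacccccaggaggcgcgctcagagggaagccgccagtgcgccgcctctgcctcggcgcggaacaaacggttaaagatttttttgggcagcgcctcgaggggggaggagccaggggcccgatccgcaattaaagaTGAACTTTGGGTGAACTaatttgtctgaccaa
Rarb: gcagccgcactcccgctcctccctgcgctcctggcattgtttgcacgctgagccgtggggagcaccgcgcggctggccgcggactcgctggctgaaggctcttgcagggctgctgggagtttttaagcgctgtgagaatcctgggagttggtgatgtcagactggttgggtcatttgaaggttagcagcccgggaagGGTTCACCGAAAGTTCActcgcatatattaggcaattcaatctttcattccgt

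The search took any pair drawn from AGGTCA together with its variants AGTTCA as well as GGGTCA or also GGTTCA, in the same direction with 1, 2 or 5 bases between, on both strands, and the Cyp26a1 match reads on the strand opposite to the gene. The matches of Cyp26a1 and Rarb have the spacing of 5, which 0.0883% of 32851 promoters of the same length hold. With any of the 3 spacings the share was 0.426%. Promoters of 6 member genes were searched (Aldh1a1, Aldh1a2, Cyp26a1, Cyp26b1, Rbp4 and Stra6), and Cyp26a1 was the only one of them with a match. Aldh1a3, Crabp2 and Rdh10 were not searched. Of 51 other retinoid genes searched, 2 had a match, Rarb and, with a spacing of 1, the carotenoid-cleaving enzyme gene Bco1. Counted by gene in the same way, 136 of all 27025 genes with a promoter had a match (0.503%). A match is a description of letters, not evidence of binding. The RNA of Cyp26a1 and that of Rarb differed in spread. Rarb, which encodes retinoic acid receptor beta, was at 4.06 and 3.93 CPM in controls 1 and 2 and at 3.33 and 3.10 CPM in the knockouts. Its controls differed by a factor of 1.03 (counting interval 0.810 to 1.31), where those of Cyp26a1 differed by 36.8.

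**Figure D1:**
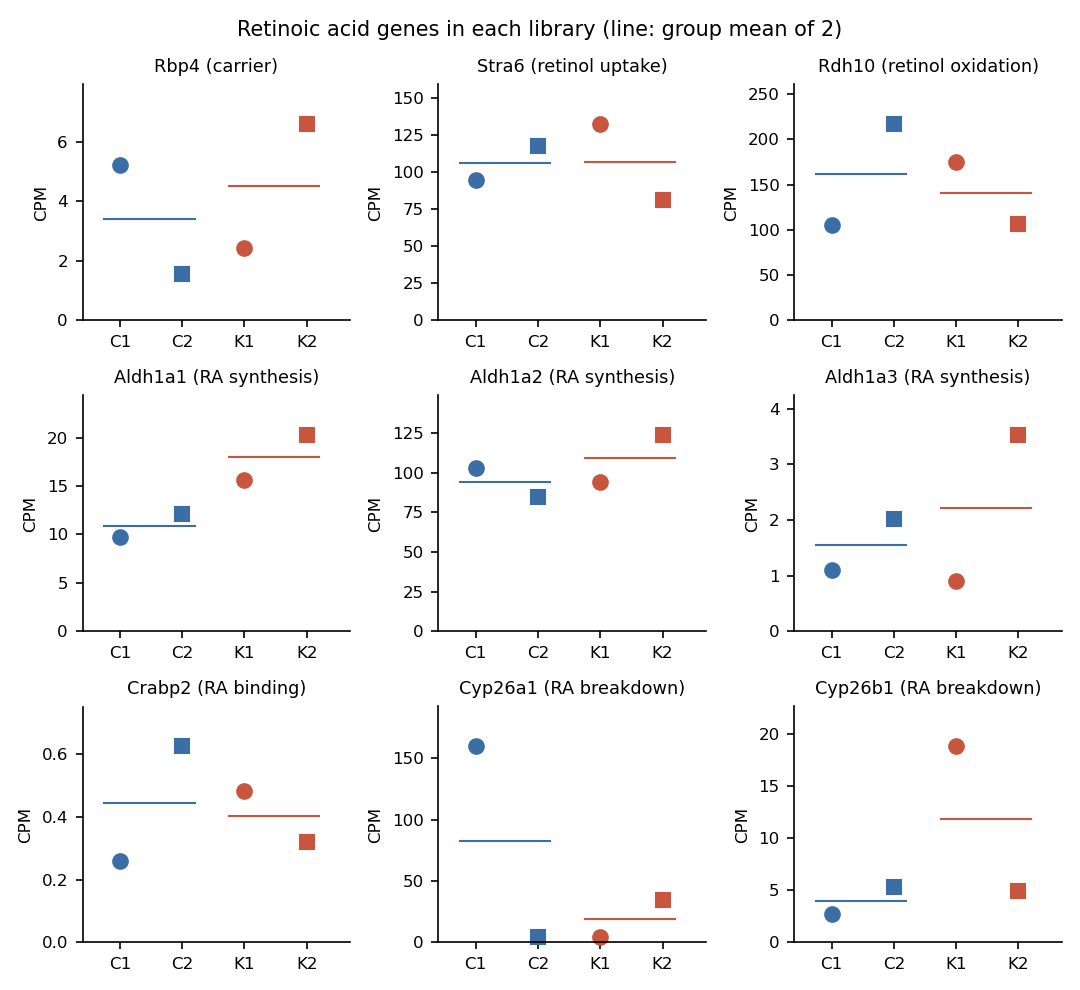
CPM of each of the 9 genes in controls 1 and 2 (C1 and C2, blue) and knockouts 1 and 2 (K1 and K2, red), on linear axes that start at 0, with a line at each group's mean of 2. Cyp26a1 is at 160.3 CPM in control 1 against 4.36 in control 2, and Aldh1a1 is the only gene whose groups do not overlap.

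Cyp26b1 (ENSMUSG00000063415) encodes a related hydroxylase that clears retinoic acid in other tissues and stages. It was at 2.68 and 5.30 CPM in controls 1 and 2 and at 18.8 and 4.88 CPM in knockouts 1 and 2. Knockout 1 stood above the other 3 libraries, and knockout 2 lay between the controls. Knockout over control, the log2 fold change came to 1.57 (SE 0.67, 95% interval −0.013 to 3.16). It was 0.29 without knockout 1. Knockout 1 exceeded knockout 2 by a factor of 3.86, with a counting interval of 3.20 to 4.67, so the libraries differed by more than counting error. Within each genotype the library with more Cyp26a1 had less Cyp26b1.

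Cyp26c1, the remaining gene of the CYP26 family and the neighbour of Cyp26a1 on chromosome 19, is not among the 9 genes but shares their step. It was at 6.68 and 0.826 CPM in controls 1 and 2 and at 0.272 and 0.570 CPM in knockouts 1 and 2, with 232, 29, 9 and 16 counts. Both knockouts lay below both controls, and control 1 exceeded control 2 by a factor of 8.08 (counting interval 5.48 to 12.3). This gave a log2 fold change of −3.17 (SE 1.02, edgeR adjusted p = 0.999976). Cyp26c1 had −0.97 without control 1 and −4.001 without control 2, with 1 control left in each fit. Its counts were 4.17, 18.95, 6.72 and 1.64 per 100 counts of Cyp26a1 in the 4 libraries, in the same order, so the ratio of the neighbours was not constant.

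Among the synthesis enzymes, Aldh1a1 (ENSMUSG00000053279) was the only member with both knockouts above both controls. It was at 9.76 and 12.1 CPM in controls 1 and 2 and at 15.7 and 20.3 CPM in knockouts 1 and 2. Group means were 10.9 ± 1.64 and 18.0 ± 3.27 CPM (SD, n = 2 each), a log2 fold change of 0.72 (SE 0.29, 95% interval 0.024 to 1.41). The unadjusted p in edgeR was 0.0444, and the difference did not pass once adjusted over all genes. Of all genes tested, 12.2% likewise had both knockouts above both controls. Leaving out each library in turn gave values from 0.52 to 0.89. The paralog Aldh1a7 is close to Aldh1a1 in sequence, and reads may be split between them. It was far lower, at 1.64 and 2.51 CPM in the controls and 0.725 and 1.21 CPM in the knockouts, with a log2 fold change of −1.10 (SE 0.54).

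Aldh1a2 (ENSMUSG00000013584) was the most abundant of the 9 genes by mean TPM and one of the steadiest. It was at 103.0 and 84.9 CPM in controls 1 and 2 and at 94.4 and 123.9 CPM in knockouts 1 and 2. Knockout 1 lay between the controls and knockout 2 was the highest. The fitted log2 fold change stood at 0.22 (SE 0.24, 95% interval −0.35 to 0.78). Aldh1a2 is also transcribed by mesothelium, the outer cell layer of the uterus. All 6 mesothelial markers examined were, like Aldh1a2, higher in control 1 than in control 2 and higher in knockout 2 than in knockout 1. Their summed level was 199.4 and 155.6 CPM in the controls and 153.3 and 232.9 CPM in the knockouts, most of it from Wt1, which stroma also transcribes, and none was at 0. Their part in the Aldh1a2 values was not tested. In whole tissue, more cells of a type and more RNA per cell cannot be told apart.

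Aldh1a3 (ENSMUSG00000015134), the third enzyme of this step, was sparse. Its counts were 38 in control 1, 71 in control 2, 30 in knockout 1 and 99 in knockout 2, or 1.09, 2.02, 0.907 and 3.53 CPM in that order. The knockouts held both the lowest and the highest value. In the fit, the log2 fold change was 0.50 (SE 0.72, 95% interval −1.21 to 2.21), and without knockout 2 it turned to −0.78.

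**Figure D2:**
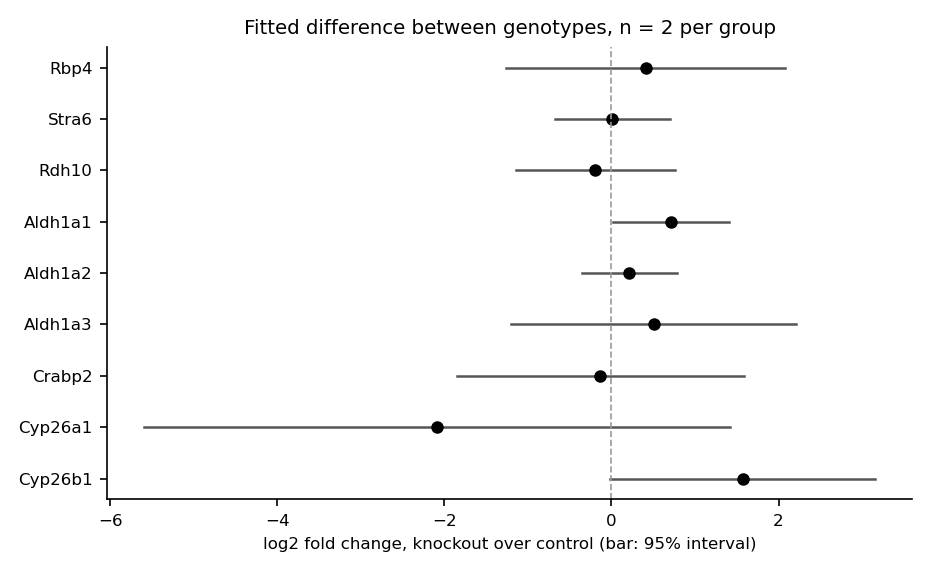
Log2 fold change of each of the 9 genes, knockout over control, with its 95% interval from the edgeR fit (2 libraries per group). The interval of Cyp26a1 is the widest, from −5.60 to 1.42, and that of Aldh1a1 alone lies above 0, from 0.024 to 1.41, before adjustment over all genes.

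Upstream of these enzymes, retinol uptake and oxidation genes were abundant and did not separate the genotypes. Stra6 (ENSMUSG00000032327) was at 94.8 and 117.7 CPM in controls 1 and 2 and at 132.6 and 81.3 CPM in knockouts 1 and 2. The knockouts enclosed the controls, and the log2 fold change was 0.0098 (SE 0.29, 95% interval −0.68 to 0.70). A change by more than 1 log2 unit in either direction lies outside that interval.

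Rdh10 (ENSMUSG00000025921) was at 105.2 and 217.2 CPM in controls 1 and 2 and at 175.0 and 107.0 CPM in knockouts 1 and 2. Here the controls enclosed the knockouts. Control 2 exceeded control 1 by a factor of 2.06 (counting interval 1.98 to 2.15), and knockout 1 exceeded knockout 2 by 1.64 (1.57 to 1.71). Knockout over control, the log2 fold change came to −0.19 (SE 0.40, 95% interval −1.15 to 0.76). It turned to 0.42 without control 2 and to 0.12 without knockout 2. Luminal epithelium markers had a sum of 934.9 and 2206 CPM in controls 1 and 2 and 1449 and 1354 CPM in knockouts 1 and 2, the same order within each genotype as Rdh10 and Stra6. Of the 5 tested luminal markers, 3 had that order singly, and the lowest listed marker, Krt13, had no count in control 1. Their part in these values was not tested.

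Rbp4 (ENSMUSG00000024990), the carrier, was at 5.21 and 1.57 CPM in controls 1 and 2 and at 2.42 and 6.59 CPM in knockouts 1 and 2. Control 1 and knockout 2 were high and the other libraries low, so the groups overlapped. This gave a log2 fold change of 0.41 (SE 0.70, 95% interval −1.26 to 2.08), and it turned to −0.21 without control 2 and to −0.49 without knockout 2. Rbp4 is best known as a gene of liver and fat. Of 8 fat markers, 7 were highest in knockout 2, the library with the most Rbp4. Their sum was 15.9 and 16.7 CPM in controls 1 and 2 and 6.83 and 44.1 CPM in knockouts 1 and 2. The exception was Pck1, at 14.6 and 9.57 CPM in controls 1 and 2 and 6.29 and 3.89 CPM in knockouts 1 and 2. Pck1 made up most of the sum in both controls and in knockout 1, so the sum there says little of the other markers. Adipoq, the adiponectin gene, had no count in control 1 or knockout 1 and was at 5.17 CPM in knockout 2. In control 1, Adipoq, Cidec and Lep had no count, Plin1, Retn and Cfd had 2, 5 and 5 counts, and Fabp4 had 36. The part of fat in these values was not tested. Of 3 liver markers, Serpina1a had no count, Alb was at 0.143 CPM or below in every library, and Apoa2 was at 0.317 and 0.855 CPM in controls 1 and 2 and at 0.0302 and 0.0713 CPM in knockouts 1 and 2.

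Crabp2 (ENSMUSG00000004885), which delivers retinoic acid to its receptors, was close to the limit of counting. Its counts were 9 in control 1, 22 in control 2, 16 in knockout 1 and 9 in knockout 2, or 0.259, 0.627, 0.484 and 0.321 CPM in that order. The controls enclosed the knockouts. The fitted log2 fold change stood at −0.13 (SE 0.72, 95% interval −1.85 to 1.58), an interval that holds changes of several fold in either direction.

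Per gene length, the 9 genes fell into an abundant and a sparse set. Mean TPM over the 4 libraries was 140.1 for Aldh1a2, 115.3 for Rdh10, 80.7 for Cyp26a1 and 58.0 for Stra6. It was 9.11 for Aldh1a1, 9.04 for Rbp4, 4.76 for Cyp26b1, 1.25 for Aldh1a3 and 1.01 for Crabp2. Ranges over libraries overlapped between Aldh1a2 (120.3 to 156.7 TPM) and Rdh10 (73.6 to 167.4 TPM), and between Rdh10 and Stra6 (40.0 to 75.2 TPM). Stra6 and Aldh1a1 (6.33 to 11.8 TPM) did not overlap. The sparse genes overlapped with their neighbours in this order. Cyp26a1 has no fixed place, since it ran from 6.75 to 258.8 TPM, and its median of 28.6 TPM would put it below Stra6.

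Summed over each step, synthesis transcripts were steady and breakdown transcripts were not. Aldh1a1, Aldh1a2 and Aldh1a3 together had 152.8 and 129.5 TPM in controls 1 and 2 and 148.9 and 170.6 TPM in knockouts 1 and 2, and Aldh1a2 made up 91.8% to 95.4% of this. Cyp26a1, Cyp26b1 and Cyp26c1 together had 272.6 and 11.7 TPM in controls 1 and 2 and 18.9 and 53.7 TPM in knockouts 1 and 2. Breakdown transcripts exceeded synthesis transcripts by a factor of 1.78 in control 1. In the other libraries synthesis transcripts were ahead, by factors of 11.0 in control 2, 7.88 in knockout 1 and 3.18 in knockout 2. The makeup of the breakdown sum differed too, since Cyp26a1 was 94.9% of it in control 1 and 93.4% in knockout 2, but 60.0% in control 2 and 35.7% in knockout 1. These are RNA levels and give no enzyme activity.

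**Figure D3:**
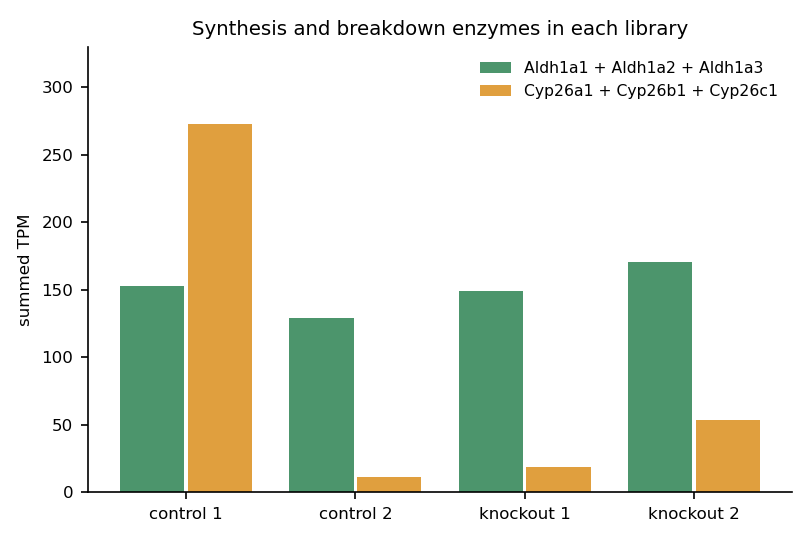
Summed TPM of the synthesis genes (Aldh1a1, Aldh1a2, Aldh1a3; green) and of the breakdown genes (Cyp26a1, Cyp26b1, Cyp26c1; orange) in each of the 4 libraries. The green bars stay between 129.5 and 170.6 TPM, while the orange bars run from 11.7 in control 2 to 272.6 in control 1.

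The libraries of one genotype thus differed in the same genes. Cyp26a1, Rbp4 and Aldh1a2 were higher in control 1 than in control 2 and higher in knockout 2 than in knockout 1. Cyp26b1, Crabp2, Stra6 and Rdh10 had the reverse order in both genotypes. Aldh1a1 and Aldh1a3 were higher in library 2 of each genotype. So 7 of the 9 genes were higher in libraries of opposite number, close to the 68.4% of all genes tested, and this order was not particular to them. The orders of Cyp26a1 and of Cyp26b1 were shared by 33.4% and 35% of all genes. Some marker lists followed it and others did not. All 6 smooth muscle markers had the order of Cyp26a1, with summed levels of 6827 and 2139 CPM in controls 1 and 2 and 5478 and 9009 CPM in knockouts 1 and 2, and none at 0. The 4 blood markers did the same. All 5 endothelial markers were instead higher in control 1 and in knockout 1, and of 7 stromal markers 2 had the order of Cyp26a1 and 3 that of Cyp26b1. Summed pan-epithelial markers did not follow it either, at 1176 and 1400 CPM in the controls and 1172 and 1443 CPM in the knockouts. The part of tissue makeup in these values was not tested.

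**Figure D4:**
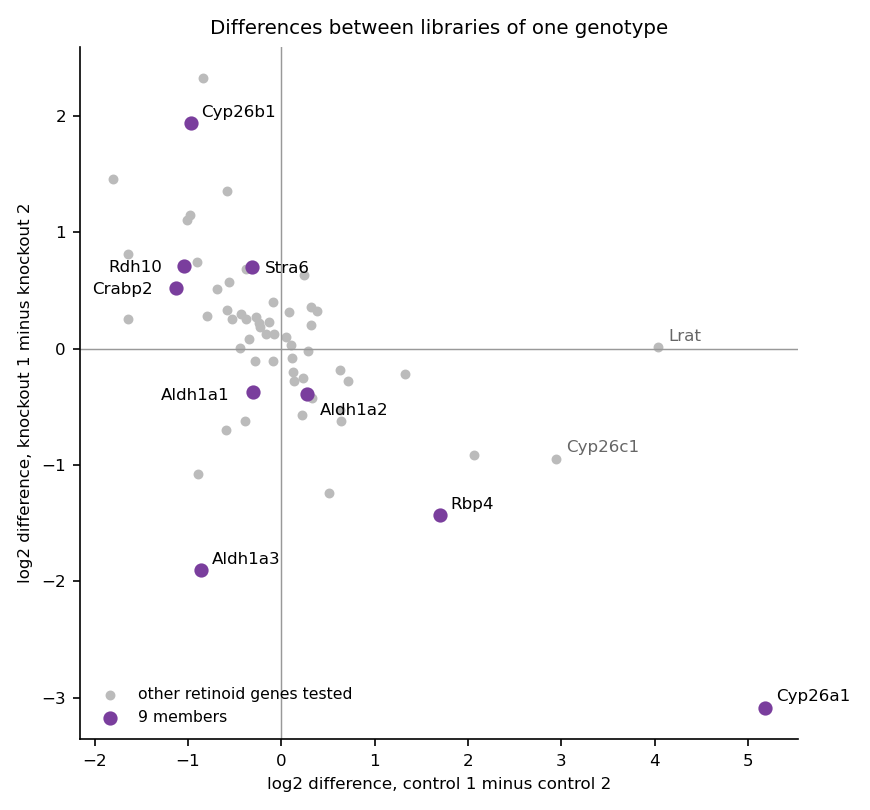
Log2 difference between the controls (horizontal axis, control 1 minus control 2) and between the knockouts (vertical axis, knockout 1 minus knockout 2) for the 9 genes (purple) and the other retinoid genes tested (grey). Cyp26a1 lies farthest out at lower right, Rbp4 lies on the same side, and Lrat differs between the controls but not visibly between the knockouts.

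In the wider retinoid pathway no gene passed the threshold in edgeR among 53 tested of 66 listed. The adjusted p in edgeR was 0.999976 for every gene named from it except Ttr. At an unadjusted p under 0.05, 1 was higher and 4 were lower, together 9.43% of the 53 against 3.01% of all genes. DESeq2 called 1, Ttr, against 0.406% of all genes, and limma-voom called 0. Of the 53, 27 had a log2 fold change above 0 and 26 below, and the median was 0.017. Both knockouts lay above both controls in 6 of them (11.3%, against 12.2% of all genes) and below in 10 (18.9%, against 13.1% of all genes). Sdr16c5, a retinol dehydrogenase gene, and Stra8, a germ cell gene induced by retinoic acid, had no count in any library.

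Of the genes for storage, uptake and carriage, 7 were tested. Ttr, which encodes the blood partner of RBP4, was at 12.3 and 4.90 CPM in controls 1 and 2 and at 0.484 and 0.570 CPM in knockouts 1 and 2. Its log2 fold change of −4.03 (SE 0.59, edgeR adjusted p = 0.237) was the lowest of the pathway. It passed with DESeq2 (adjusted p = 2.78e-08), and over all alternatives its adjusted p ran from 2.78e-08 to 0.628. Ttr is a gene of the uterine glands as well. Lrat, which stores retinol as esters, was at 33.4 and 1.99 CPM in controls 1 and 2 and at 3.96 and 3.92 CPM in knockouts 1 and 2. Control 1 stood alone, 16.8 times control 2 (counting interval 13.2 to 21.7), while the knockouts differed by a factor of 1.01. The log2 fold change of Lrat was −2.17 (SE 1.06). With 1 control left in the fit, it turned to 0.996 without control 1 and was −3.09 without control 2. Dgat1, an acyltransferase that can also esterify retinol, had a log2 fold change of 0.24 (SE 0.22).

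Genes that interconvert retinol and retinaldehyde numbered 18 tested, 10 above 0 and 8 below. Dhrs4 and Adh5, the most abundant at means of 120.5 and 89.4 TPM, had log2 fold changes of 0.024 (SE 0.27) and −0.039 (SE 0.24). Dhrs9, a short-chain dehydrogenase gene, was at 1.15 and 0.969 CPM in controls 1 and 2 and at 3.23 and 2.07 CPM in knockouts 1 and 2, and Rdh16 was at 3.37 and 6.81 CPM and at 2.21 and 0.998 CPM. Both had groups that did not overlap and unadjusted p of 0.0311 and 0.0236 in edgeR, and neither passed after adjustment. Other enzymes that can oxidise retinaldehyde included Aldh1b1 at a mean of 32.2 TPM and Aox3 at 16.9 TPM, with log2 fold changes of 0.30 (SE 0.29) and 0.22 (SE 0.49). The cytochrome gene Cyp1b1 had −0.49 (SE 0.46). For the carotenoid-cleaving enzyme gene Bco2 the value was 0.43 (SE 0.76).

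Both tested genes of intracellular fatty acid and retinoid binding were lower in both knockouts. Fabp5, which can carry retinoic acid to another receptor, was at 26.0 and 22.2 CPM in controls 1 and 2 and at 12.5 and 14.8 CPM in knockouts 1 and 2. Its log2 fold change was −0.82 (SE 0.26) (edgeR, unadjusted p = 0.0170). Crabp1, a relative of Crabp2, was at 2.48 and 2.02 CPM in the controls and 1.30 and 1.32 CPM in the knockouts, a log2 fold change of −0.78 (SE 0.46). Of all genes tested, 13.1% had both knockouts below both controls.

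Receptors and coregulators varied little. The 5 tested receptor genes had log2 fold changes from −0.31 for Rarb to 0.25 for Rarg, and the retinoid X receptor gene Rxrb had 0.24 (SE 0.20). All 7 coregulator genes lay below 0, the lowest being Ncoa2 at −0.24 (SE 0.22), but each interval included 0, and the corepressor gene Ncor1 had −0.18 (SE 0.25). Ncoa1 had −0.20 (SE 0.23). Of 8 tested genes that retinoic acid is known to induce in other cells, 6 lay above 0. The 2 below were Rarb at −0.31 (SE 0.37) and Dhrs3 at −0.059 (SE 0.24). Over all 20950 genes tested, 10696 lay above 0 and 10254 below. Tgm2, a protein crosslinking enzyme gene, was at 561.3 and 343.3 CPM in controls 1 and 2 and at 625.2 and 759.9 CPM in knockouts 1 and 2, a log2 fold change of 0.61 (SE 0.34). Rarres2, which encodes the chemoattractant chemerin, had 0.37 (SE 0.30). None of the 8 differed between the controls by as much as Cyp26a1, and neither did 99.97% of all genes tested.

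**Figure D5:**
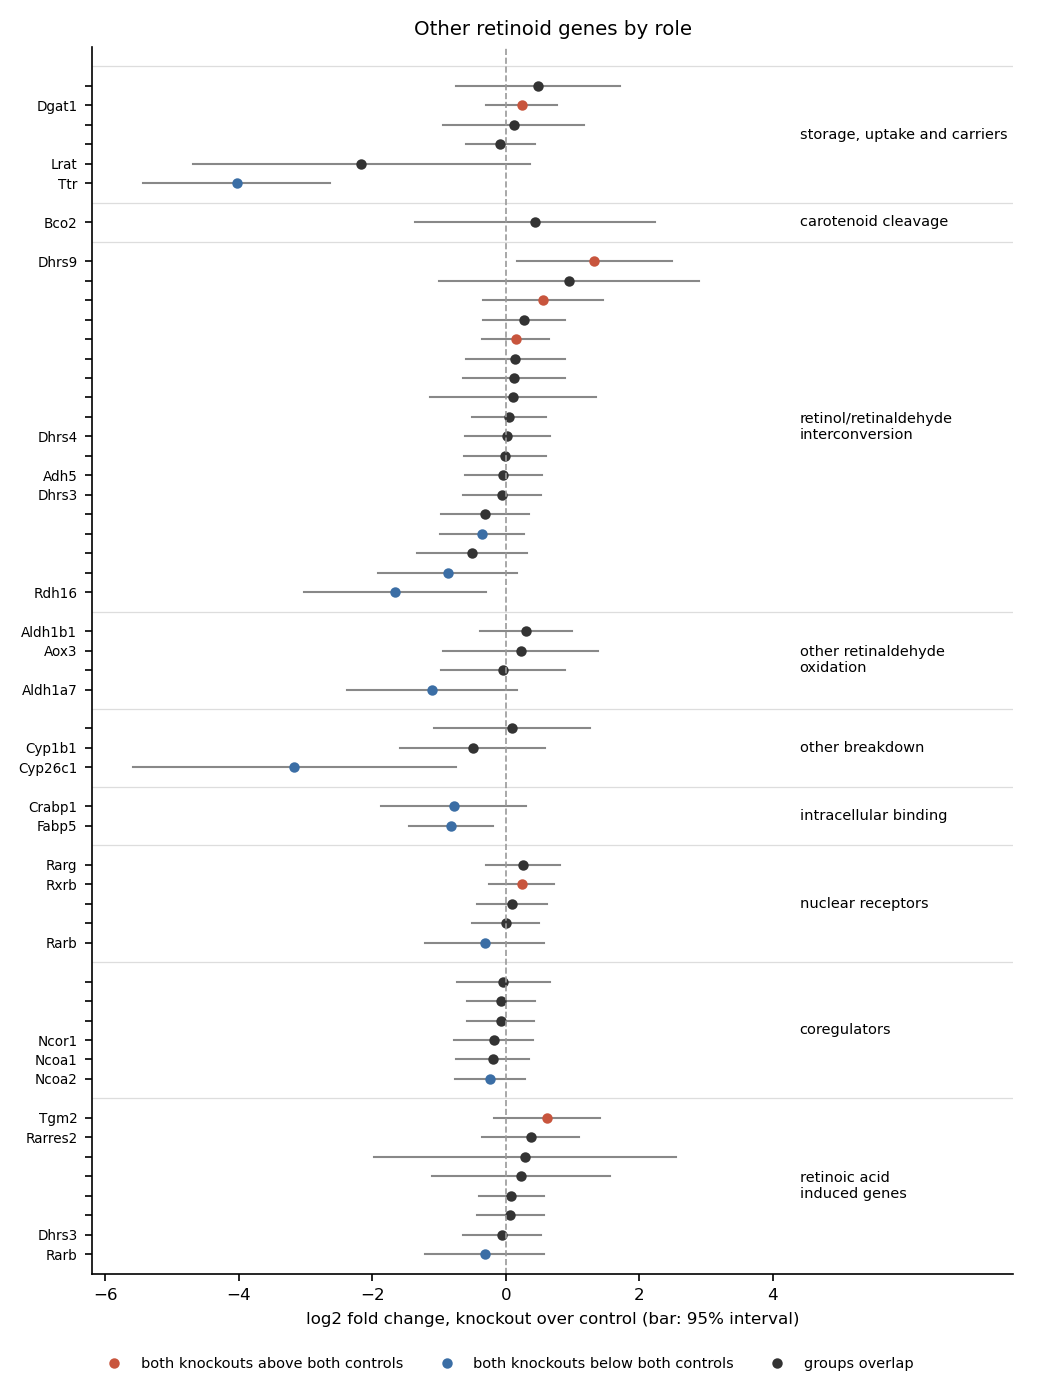
Log2 fold change, knockout over control, with 95% interval for 51 of the 53 other retinoid genes tested, grouped by role, with names for those the text describes (Rarb and Dhrs3 appear under both of their roles). Most points lie near 0, while Ttr at −4.03, Cyp26c1 at −3.17 and Lrat at −2.17 lie far to the left with wide intervals.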

How the data were processed

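The submitters' processing notes name Trimmomatic, STAR, featureCounts and the build GRCm39. Their versions, the annotation release, the strand setting and the treatment of multiply matching reads are not stated there, so counts of close paralogs, overlapping genes and antisense pairs carry an uncertainty. The authors deposited whole-number counts for 57186 genes and TPM for 19991 of them. On checking, the TPM table held every gene with a total count of at least 51 and its TPM equalled count over length, rescaled. The main test was edgeR 4.0.16 in R 4.3.3 (quasi-likelihood, TMM factors, filterByExpr with minimum count 10 and total 15), with group as the only term. Standard errors came from the fitted log2 fold change and its F value. Alternatives were DESeq2 1.42.0, limma-voom (limma 3.58.1), factors by RLE or upper quartile, other count filters, a replicate block and leaving out each library. Procedures were checked on simulated counts. There edgeR recovered 6 of 100 changes of 2-fold and 95 of 100 of 8-fold, so a change of 2-fold or less would mostly be missed. The changes were placed only in genes above a minimum mean CPM, which Crabp2, Aldh1a3, Rbp4 and Cyp26c1 do not reach. These shares need not hold for such sparse genes. False calls made up 13.7% of those by edgeR, 25.1% by DESeq2 and 13.4% by limma-voom, above the 0.05 aimed at. Within-group log2 differences added 0.05 CPM, and counting intervals are exact binomial at 95%. No pair of libraries agreed within sampling noise. PCR duplicates are not independent molecules, so intervals and floors (3 counts) cover counting error only.

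The members and lists were chosen with earlier results of these data known. All 9 members are named. Of the other retinoid genes, those past the threshold, the 2 most abundant and the 2 with the smallest p of each role are named, except 2 genes that are not reported here but stay in the counts over the lists. Rarb, Dhrs3, Sdr16c5 and Stra8, the marker genes and the genes of the closing section were named after their values were seen. Symbols came from the deposited table, or from a reference table for genes outside it. Promoter sequences are RefSeq's on GRCm38.p6, and no gene coordinates are given, since that build is not the authors'.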

Additional observations from a re-analysis of the deposited data

How the results depend on the processing

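No member passed the threshold under any of the alternatives run (the stricter filter tested 8 members). In the fits of all 4 libraries, from 0 to 3 members had an unadjusted p under 0.05. The 3 came with no low-count filter (1122 of all 34279 genes) and with the replicate numbers crossed (1621 of 20950). The 0 came with upper-quartile factors (626 of 20950) and with the replicate block (428 of 20950). Over all genes, the 1 call became 85 with DESeq2, 54 with no low-count filter, 0 with the stricter filter and 0 with limma-voom, and from 16 to 49 when a library was left out. Among the other retinoid genes the count was 1 with DESeq2, 1 with no low-count filter and from 0 to 3 when a library was left out, where Lrat, Ttr and Cyp26c1 passed without control 2. The cause was not tested. Deviations of same-numbered libraries had a correlation of −0.48 over 20950 genes, so these libraries did not deviate alike. With 2 libraries a group this is a single correlation, and it cannot tell whether the numbers mark a pairing. With the replicate block the counts were 32 over all genes, 0 members and 1 other retinoid gene (Ttr), and with crossed numbers, an alternative chosen after seeing the data, they were 37, 0 and 1.

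Near 0, the log2 fold change of Stra6 was −0.0014 with upper-quartile factors, −0.028 with limma-voom, −0.024 with the replicate block and −0.024 with crossed numbers. Leaving out each library gave ranges that included 0 for Cyp26a1 (−4.35 to 2.17), Lrat (−3.09 to 0.996), Aldh1a3 (−0.78 to 1.18), Rbp4 (−0.49 to 1.54), Crabp2 (−0.62 to 0.64), Stra6 (−0.38 to 0.32), Rdh10 (−0.61 to 0.42), Bco2 (−0.50 to 1.65), Dhrs4 (−0.23 to 0.35), Adh5 (−0.23 to 0.20), Aox3 (−0.36 to 1.26) and Cyp1b1 (−1.18 to 0.076). The ratio of the controls for Cyp26a1 was 35.6 to 36.9 over the scalings tried. Beyond having 2 libraries a group, every member except Crabp2 is limited by a spread between libraries that exceeds counting error in both genotypes. Crabp2, with 9 to 22 counts a library, exceeded it between the controls alone.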

Other observations

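Cyp26a1 was among the genes that differed most between the control libraries. Of 13311 genes with a control mean of at least 5 CPM, it ranked 2 by the ratio of control 1 to control 2, and Lrat ranked 4. Rank 1 was Sprr2g, a small proline-rich protein gene of epithelia, at 40.0 and 1.08 CPM in controls 1 and 2 and at 1.66 and 34.6 CPM in knockouts 1 and 2. As for Cyp26a1, control 1 and knockout 2 were the high libraries. Nr4a3, a nuclear receptor gene, was at 27.6 and 2.76 CPM in controls 1 and 2 and at 4.66 and 59.7 CPM in knockouts 1 and 2. Slc5a1, which encodes a sodium-coupled glucose transporter, was at 55.3 and 6.27 CPM and at 4.96 and 31.7 CPM.

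Lgr5, a receptor gene of Wnt signalling, was at 37.6 and 3.05 CPM in controls 1 and 2 and at 3.597 and 2.00 CPM in knockouts 1 and 2, so that control 1 stood alone, as for Lrat. Outside these top ranks, Lif, the gland cytokine of implantation, was at 55.7 and 9.46 CPM in controls 1 and 2 and at 4.90 and 5.35 CPM in knockouts 1 and 2. Of 8 gland epithelium markers examined, a list that holds Lif and Ttr, 5 were higher in control 1 than in control 2. The summed level of the gland markers was 218.6 and 148.1 CPM in the controls and 68.8 and 96.8 CPM in the knockouts, and Prss29 alone among them had no count in the knockouts. Prss29, which carries Cre in the knockouts, gave 43.9 and 5.41 CPM of the control sums. Cxcl15 was at 29.5 and 38.6 CPM in the controls and 35.7 and 72.6 CPM in the knockouts, most of the knockout sums. These genes were picked after their values were seen, and no test of them as a set was made.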
